A study of Mus musculus with 6 samples.

Results

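The genes that set the pace of the G1 phase were examined in leukemia cells of 2 genotypes: the D cyclins Ccnd1, Ccnd2 and Ccnd3, their kinases Cdk4 and Cdk6, the inhibitors Cdkn1b, Cdkn1c, Cdkn2c and Cdkn2d, and the retinoblastoma gene Rb1. They were taken by gene symbol from the deposited table, which held 46983 genes, and all 10 were found and passed the filter on low counts. The cells carry MLL-AF9, an oncogene made by fusing MLL with AF9 that drives acute myeloid leukemia, and it was brought by retrovirus into double-sorted marrow stem and progenitor cells (Lin-, Sca-1+, c-Kit+). The donors were C57BL/6J mice, either wild type (WT) or Alox5-/-, the knockout of the gene of 5-lipoxygenase, the enzyme that starts leukotriene synthesis. Transduced cells, marked by GFP, were passed to irradiated C57BL/6J recipients. Each genotype had 3 libraries, all untreated, made from polyadenylated RNA of sorted cells. Both groups thus share the oncogene and the strain and differ in the labelled Alox5 genotype. The labels call the libraries biological replicates and also name each genotype as a cell line, and the sources used here give neither the animals behind each library nor their age, so p-values measure the spread between these libraries, which may be technical.

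In G1, D cyclins bind CDK4 and CDK6, and the active kinases phosphorylate RB, which then releases E2F transcription factors to drive S phase genes. INK4 proteins such as those of Cdkn2c (p18) and Cdkn2d (p19) bind CDK4 and CDK6 and keep the cyclins off, while the CIP/KIP proteins of Cdkn1b (p27) and Cdkn1c (p57) bind whole cyclin-CDK complexes and block above all those of CDK2. CDK6 is a known dependency of leukemia cells with MLL fusions, and p27 and p57 are known for keeping blood stem cells quiescent.

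Start-site sequence was matched for 6 of the 10 genes in RefSeq (build GRCm38.p6, the same assembly as mm10). The stretches shown lie free of the gene's own annotated exons, and exons of other genes were not checked. They belong to Ccnd3, the gene with the smallest adjusted p, Cdk4, which fell with it, and Cdkn1b, which rose. Each runs from 250 to 2 bases upstream of the start, 5′ to 3′ on the gene's strand, at chr17:47504801-47505049 (Ccnd3, the more upstream of 2 listed starts), chr10:127063285-127063533 (Cdk4) and chr6:134920151-134920399 (Cdkn1b), all on the plus strand. Capitals mark matches, on either strand, to an E2F motif (TTTGGCGC, TTTCCCGC, TTTCGCGC or TTTGCCGC), a FOXO motif (TGTTTAC), an E-box (CACGTG) or a cyclic AMP response element (TGACGTCA).
Ccnd3: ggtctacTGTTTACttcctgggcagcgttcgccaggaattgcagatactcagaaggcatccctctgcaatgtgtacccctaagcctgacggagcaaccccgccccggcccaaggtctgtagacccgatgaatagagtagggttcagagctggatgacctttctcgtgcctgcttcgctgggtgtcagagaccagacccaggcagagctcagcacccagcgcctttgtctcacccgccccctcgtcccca
Cdk4: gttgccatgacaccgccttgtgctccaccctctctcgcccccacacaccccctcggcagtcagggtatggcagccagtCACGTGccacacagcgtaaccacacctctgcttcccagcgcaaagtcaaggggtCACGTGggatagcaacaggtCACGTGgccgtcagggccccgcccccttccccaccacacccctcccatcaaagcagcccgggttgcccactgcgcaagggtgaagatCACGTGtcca
Cdkn1b: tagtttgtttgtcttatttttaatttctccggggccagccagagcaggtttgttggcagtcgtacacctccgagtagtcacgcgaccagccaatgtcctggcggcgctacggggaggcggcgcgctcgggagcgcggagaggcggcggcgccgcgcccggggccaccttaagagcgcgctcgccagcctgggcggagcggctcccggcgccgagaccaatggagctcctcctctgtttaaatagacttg
The Cdk4 stretch holds 4 E-boxes, at 172, 118, 98 and 11 bases upstream of the start, and the Cdk6 stretch, which was not printed because 57 of its bases lie in annotated exons, holds 1. Of 32851 windows of the same length in RefSeq, 6.00% hold an E-box. The Ccnd3 stretch holds 1 FOXO motif, 243 bases upstream, found in 3.15% of all windows. The window of the other listed Ccnd3 start holds no FOXO motif. None of these letters occurs in the Cdkn1b stretch. E2F letters occur in 1.84% of all windows and in none of the windows listed for the 6 genes. A match here describes letters and not a bound site.

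In Alox5-/- cells, Ccnd3, Cdk4, Cdk6 and Cdkn1c were lower and Cdkn1b, Rb1 and, at the edge of the threshold, Cdkn2d were higher, all by less than 2-fold. Ccnd2, Cdkn2c and Ccnd1 did not pass the test. With edgeR's quasi-likelihood test on all 13705 tested genes and an adjusted p under 0.05, 7 of the 10 genes were called, 4 lower and 3 higher. The background was wide: 53.8% of all tested genes were called, with 3673 higher and 3706 lower (4326 and 2959 with library totals in place of TMM factors), so the share of these genes that changed is near that of genes in general. Their median log2 fold change was -0.05, against 0.00 over all tested genes. The libraries of the 2 genotypes did not overlap for 6 of the 10 genes, and did not overlap for 60.0% of all tested genes. In bulk RNA of this kind, fewer cells using a gene and less RNA per cell cannot be told apart.

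**Figure D1:**
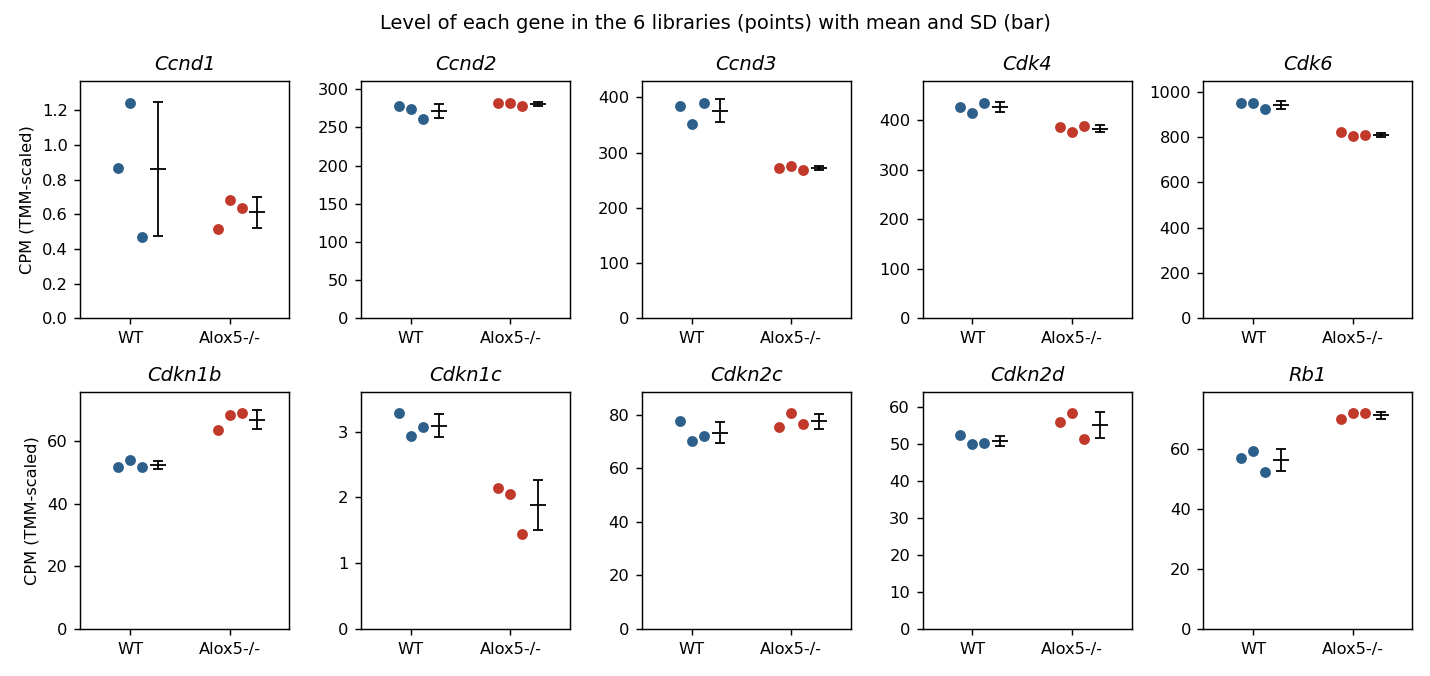
Level of each of the 10 genes, in CPM after TMM scaling, in the 3 WT and 3 Alox5-/- libraries (points), with the mean and SD of each group (bars). The groups separate for Ccnd3, Cdk4, Cdk6, Cdkn1b, Cdkn1c and Rb1 and overlap for Ccnd1, Ccnd2, Cdkn2c and Cdkn2d.

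Library depth was 28985597 to 38695948 gene counts. Alox5 stood at 65.6, 62.0 and 64.8 CPM (gene counts relative to library size, scaled with TMM factors) in Alox5-/- replicates 1 to 3 and at 102, 106 and 106 CPM in WT, so its transcript was 1.63-fold lower (edgeR adjusted p = 7.65e-10) but present in every library labelled Alox5-/-. The sources used here do not say which part of the gene the allele alters, so gene counts check the genotype labels only in part. Of 4 stem and progenitor markers, Kit was lower in Alox5-/- (136 ± 2.72 against 159.7 ± 3.09 CPM; SD over 3 libraries each), Flt3 and Cd34 were higher (21.3 ± 1.18 against 11.3 ± 0.116, and 227 ± 3.39 against 176.8 ± 3.04 CPM), and Ly6a, which encodes the Sca-1 of the donor sort, was scarce (0.762 ± 0.158 and 1.06 ± 0.169 CPM) and not called. Of 4 myeloid markers, Mpo was far lower (65.6 ± 7.76 against 197 ± 13.4 CPM; log2 -1.59, edgeR adjusted p = 8.46e-11), Itgam and Elane were lower by less, and Csf1r was not called. The summed level of these 4 was 571 to 632 CPM in Alox5-/- libraries and 752 to 854 CPM in WT. Adgre1 of macrophages was lower (32.9 ± 1.40 against 43.1 ± 1.93 CPM), as were Cpa3 of mast cells (1.90 ± 0.151 against 8.77 ± 0.831 CPM) and Itga2b of megakaryocytes (1.84 ± 0.0671 against 3.97 ± 0.259 CPM), while the basophil gene Mcpt8 was not called. The T cell genes Cd3e and Cd3g had 0 counts, a limit of 0.103 CPM in the shallowest library, and C1qa, Pf4 and Cdh5 had 1, 6 and 7 counts over all 6 libraries. The part of these marker differences in the changes below was not tested. Alox5-/- replicate 2 stood farthest from the other libraries of its group (chi-square per degree of freedom 9.09 and 10.3, against 2.18 to 5.10 for the other pairs within a genotype).

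Among the D cyclins, Ccnd3 fell and Ccnd2 was not called. Ccnd3, the D cyclin best known in lymphoid and myeloid precursors, was 272, 276 and 268 CPM in Alox5-/- replicates 1 to 3 and 385, 352 and 391 CPM in WT. All 3 Alox5-/- libraries lay well below all 3 WT libraries. The fall was 1.38-fold, or -0.47 on the log2 scale (SE 0.04; edgeR adjusted p = 9.61e-08), and 17.6% of all tested genes changed by at least as much in either direction. Ccnd3 (ENSMUSG00000034165) spans 47505051 to 47599691 on the plus strand of chromosome 17 (mm10), with 21 annotated transcripts from several starts, and gene counts do not tell these apart. Its exons share 361 bases with Bysl on the opposite strand, and Bysl was also lower (log2 fold change -0.23; edgeR adjusted p = 0.000221).

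Ccnd2, the D cyclin most responsive to cytokines in blood cells, was 282, 283 and 278 CPM in Alox5-/- and 278, 274 and 261 CPM in WT. The groups touched, with Alox5-/- replicate 3 just under WT replicate 1. The log2 fold change was 0.05 (SE 0.03; edgeR adjusted p = 0.202), and 84.8% of tested genes changed by at least this much. With library totals alone as the scale, without TMM factors, Ccnd2 was called higher (log2 fold change 0.09; edgeR adjusted p = 0.0241). Ccnd2 covers 127125162 to 127152193 on chromosome 6 (minus strand), 10.7 Mb from Alox5.

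Ccnd1, the cyclin that dominates in many epithelial and mesenchymal cells, was scarce, with 16, 20 and 19 counts in Alox5-/- and 26, 37 and 18 counts in WT. This is 0.513, 0.684 and 0.639 CPM against 0.870, 1.25 and 0.471 CPM, and WT held both the highest and the lowest library. A count of 18 gives an exact Poisson interval of 0.279 to 0.745 CPM and one of 37 gives 0.877 to 1.72 CPM (95%, counting error only), and these 2 intervals did not overlap. The log2 fold change was -0.45 (SE 0.32; edgeR adjusted p = 0.258), and it was -0.79 (edgeR adjusted p = 0.0315) without WT replicate 3 and -0.09 without WT replicate 2. Ccnd1 exons share 1100 bases with Oraov1 on the opposite strand, which had 3645 counts in all, and without a known strand setting the reads of the 2 genes cannot be told apart there.

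**Figure D2:**
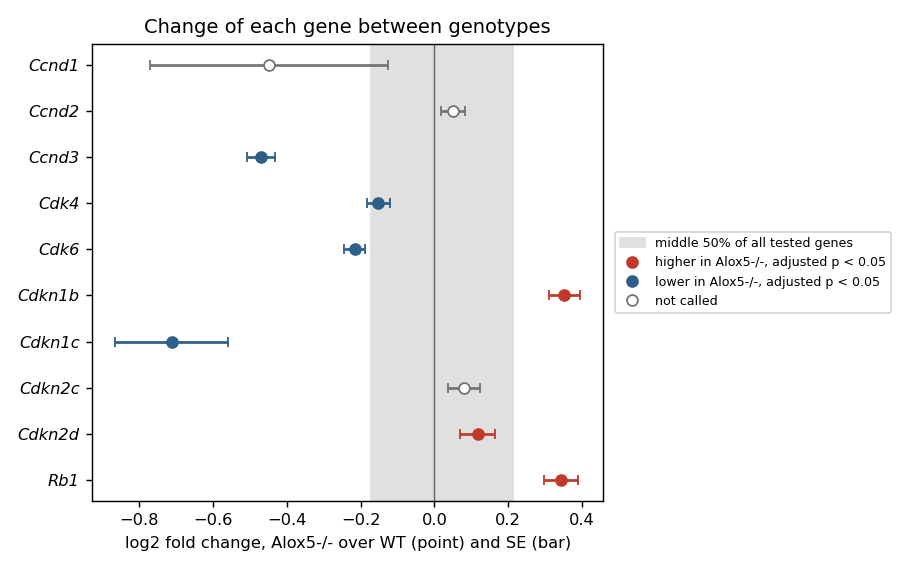
Log2 fold change of Alox5-/- over WT for each gene (points) with its standard error (bars), filled where the adjusted p was under 0.05; the grey band spans the middle 50% of all tested genes, from -0.17 to 0.21. Ccnd3, Cdkn1c and Cdk6 lie to the left of the band, Cdkn1b and Rb1 to the right, and Cdk4 and Cdkn2d inside it although called; the uncalled Ccnd1 lies to the left with a wide error.

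Both kinases were lower in Alox5-/- cells by small, tight amounts. Cdk6 had among the most reads of all genes, with a mean CPM, not corrected for length, reached by only 0.547% of tested genes. It stood at 821, 803 and 809 CPM in Alox5-/- and at 953, 949.6 and 924 CPM in WT. Every Alox5-/- library was below every WT library. It fell 1.16-fold (log2 -0.22, SE 0.03; edgeR adjusted p = 2.01e-05). Cdk4, the kinase shared by most cycling cells, was 387, 375.5 and 387 CPM in Alox5-/- and 426, 415 and 436 CPM in WT, again with no overlap. It fell 1.11-fold (log2 -0.15, SE 0.03; edgeR adjusted p = 0.000728), a size that 58.3% of tested genes reached or passed. Cdk6 (3341485 to 3531008 on chromosome 5) and Cdk4 (127063534 to 127067920 on chromosome 10) both lie on the plus strand. Exons of Cdk4 share 641 bases with Tspan31 on the opposite strand, which moved the other way (log2 fold change 0.15; edgeR adjusted p = 0.00285).

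The CIP/KIP inhibitors Cdkn1b and Cdkn1c moved in opposite directions. Cdkn1b was 63.5, 68.4 and 69.0 CPM in Alox5-/- replicates 1 to 3 and 51.7, 53.9 and 51.9 CPM in WT. Every Alox5-/- library was above every WT library, and the mean rose from 52.5 ± 1.24 to 67.0 ± 3.01 CPM (SD, n = 3 each). The rise was 1.28-fold (log2 0.35, SE 0.04; edgeR adjusted p = 5.78e-06). Cdkn1b covers 134920401 to 134925513 on chromosome 6 (plus strand), 18.5 Mb from Alox5, and no annotated gene overlaps it.

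Cdkn1c, which is imprinted and expressed from the maternal allele, had the deepest fall of the 10 genes and few reads. The Alox5-/- libraries held 67, 60 and 43 counts and the WT libraries 98, 87 and 117, which is 2.15, 2.05 and 1.45 CPM against 3.28, 2.93 and 3.06 CPM. The groups did not overlap, but the exact Poisson intervals of Alox5-/- replicate 1 (1.67 to 2.73 CPM) and WT replicate 2 (2.34 to 3.61 CPM) did. Cdkn1c was 1.64-fold lower (log2 -0.71, SE 0.15; edgeR adjusted p = 0.00107), and log2 was -0.55 without Alox5-/- replicate 3, the lowest library, and still called (edgeR adjusted p = 0.00719). Cdkn1c covers 143458339 to 143461050 on chromosome 7 (minus strand), and 625 of its 2039 exon bases are shared with Gm44732 on the opposite strand, a gene without a row in the table, so reads of the 2 cannot be told apart there.

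The INK4 inhibitors changed little. Cdkn2d was 55.8, 58.2 and 51.4 CPM in Alox5-/- and 52.3, 49.9 and 50.2 CPM in WT. Alox5-/- replicate 3 fell within the WT range. The log2 fold change of 0.12 (SE 0.05) had an edgeR adjusted p of 0.0495, at the edge of the threshold, and the call held under only 7 of 15 alternatives. It was lost without Alox5-/- replicate 1, Alox5-/- replicate 2 or any 1 of the WT replicates (edgeR adjusted p = 0.0533 to 0.156), with the replicate number as a block (edgeR adjusted p = 0.0629), and with DESeq2 (adjusted p = 0.0714) or limma-voom (adjusted p = 0.0521). Cdkn2c was 75.3, 80.5 and 76.6 CPM in Alox5-/-, against 77.7, 70.3 and 71.9 CPM in WT, with overlapping groups (log2 0.08, SE 0.04; edgeR adjusted p = 0.131). Cdkn2c passed the threshold with upper-quartile scaling (edgeR adjusted p = 0.0459), with library totals alone (edgeR adjusted p = 0.0241) and without WT replicate 1 (edgeR adjusted p = 0.0366). With library totals alone the calls therefore split into 5 higher and 4 lower, against 3 higher and 4 lower with TMM scaling. Cdkn2d lies at 21288410 to 21291407 on chromosome 9 and Cdkn2c at 109660876 to 109667189 on chromosome 4, both on the minus strand.

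Rb1, whose product is the substrate of the D cyclin kinases, rose. It stood at 70.0, 71.9 and 71.9 CPM in Alox5-/- and at 57.1, 59.5 and 52.3 CPM in WT, so the Alox5-/- libraries were both higher and closer together. The rise was 1.27-fold (log2 0.34, SE 0.05; edgeR adjusted p = 1.67e-05), and log2 ranged from 0.29 to 0.39 over 15 alternatives, called under each. Rb1 covers 73183673 to 73325822 on the minus strand of chromosome 14. Its exons share 488 bases with Rcbtb2 and 408 bases with Lpar6 on the opposite strand, of which Rcbtb2 was higher (log2 fold change 0.43; edgeR adjusted p = 0.000403) and Lpar6 was not called (edgeR adjusted p = 0.285).

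Ratios between these genes within a library do not depend on how libraries are scaled to each other, and 7 were compared. There were 1.04, 1.03 and 1.04 Ccnd2 reads for each Ccnd3 read in Alox5-/- replicates 1 to 3 and 0.723, 0.778 and 0.6675 in WT. The Alox5-/- libraries were nearly identical to one another and all above WT, a 1.43-fold difference (0.52 on the log2 scale). Reads of Cdkn1b per read of the 3 D cyclins together numbered 0.115, 0.122 and 0.126 in Alox5-/-, against 0.0778, 0.0859 and 0.0796 in WT, 1.49-fold higher. Reads of the 2 INK4 genes per read of Cdk4 and Cdk6 stood at 0.109, 0.118 and 0.107 against 0.0943, 0.0881 and 0.0898, 1.22-fold higher. Cdkn1c to Cdkn1b was 0.0338, 0.0300 and 0.0210 against 0.0635, 0.0543 and 0.0591, 2.12-fold lower in Alox5-/-. In these 4 ratios the groups did not overlap and the two-sided exact permutation p was 0.1, the smallest that 3 against 3 allows, and 0.175 after Benjamini-Hochberg adjustment over 7 ratios. None can therefore pass 0.05 in this design. The ratio of Cdk6 to Cdk4 was 2.12, 2.14 and 2.09 against 2.24, 2.29 and 2.12 (exact p = 0.3), and that of Cdkn2c to Cdkn2d was 1.35, 1.38 and 1.49 against 1.48, 1.41 and 1.43 (exact p = 0.5). Both pairs overlapped between genotypes, as did Ccnd1 to Ccnd3 (exact p = 0.8).

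**Figure D3:**
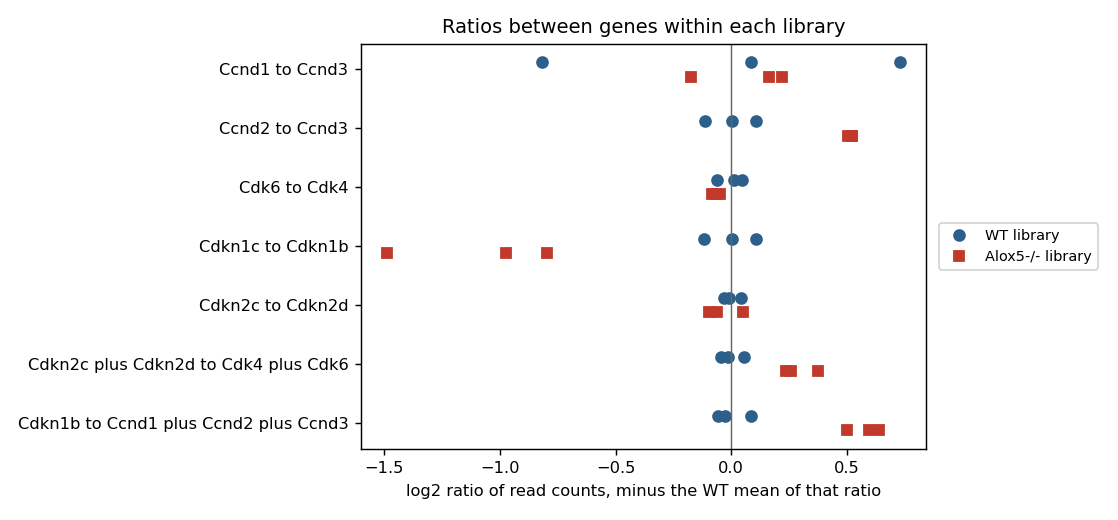
Log2 ratio of read counts of the named genes within each library, minus the WT mean of that ratio, for 3 WT (circles) and 3 Alox5-/- libraries (squares). The Alox5-/- libraries lie apart from WT for Ccnd2 to Ccnd3, Cdkn1c to Cdkn1b, the INK4 genes to the kinases, and Cdkn1b to the D cyclins.

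Levels were set side by side per length of exon, as CPM per kb over all annotated exons of a gene. In WT, Cdk4 was highest at 131 ± 3.10 CPM per kb, followed by Cdk6 (67.4 ± 1.122), Ccnd3 (42.9 ± 2.36), Cdkn2d (32.3 ± 0.841), Ccnd2 (28.8 ± 0.977), Cdkn2c (27.3 ± 1.45), Cdkn1b (11.5 ± 0.272), Rb1 (9.36 ± 0.612), Cdkn1c (1.52 ± 0.0871) and Ccnd1 (0.183 ± 0.0822; SD, n = 3 each). Ccnd2 and Cdkn2c were the only neighbours in this order whose WT libraries overlapped. In Alox5-/- the order of the means was the same except that Cdkn2d (35.0 ± 2.20) stood above Ccnd3 (31.0 ± 0.437), and Ccnd2 (29.9 ± 0.257) and Cdkn2c (28.9 ± 1.003) again overlapped. Ccnd3 made up 59.6 ± 1.90% of the D cyclin level per length in WT and 50.8 ± 0.163% in Alox5-/-, and Ccnd2 the remainder but for 0.256% and 0.213% from Ccnd1. With the longest transcript as the length, Ccnd3 was at 97.5 in WT and 70.5 CPM per kb in Alox5-/-, and its share was 69.3% and 61.3%. By this measure Ccnd3 stood above Cdk6 (81.8 CPM per kb) in WT, and in Alox5-/- the 2 genes did not differ beyond their spread (70.5 ± 0.995 and 70.4 ± 0.793), so their order depends on the length used. Ccnd3 also stayed above Cdkn2d (38.7 CPM per kb) in Alox5-/-, and the order of the means was then the same in both genotypes. The place of Cdkn2d above Ccnd3 in Alox5-/- thus holds only with all annotated exons as the length. With the longest transcript Ccnd2 also stood above Cdkn2d, and Rb1 above Cdkn1b, in both genotypes. Cdkn1c made up 11.6 ± 0.799% of the summed level per length of Cdkn1b and Cdkn1c in WT and 5.92 ± 1.31% in Alox5-/-, with Cdkn1a, the other CIP/KIP gene, left out of the sum.

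**Figure D4:**
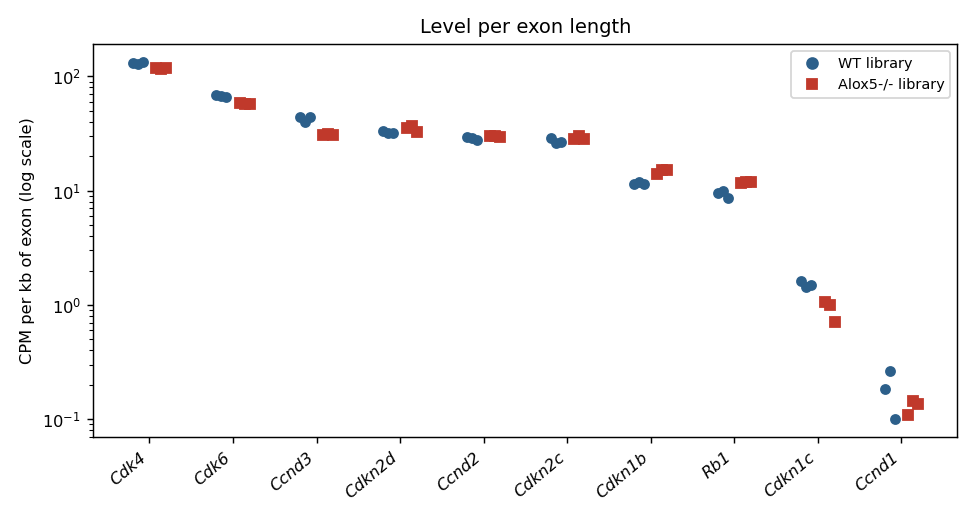
CPM per kb of annotated exon (log scale) for the 10 genes, ordered by their WT mean, in WT (circles) and Alox5-/- (squares) libraries. Cdk4 and Cdk6 stand highest, and Ccnd1 and Cdkn1c stand below 2 CPM per kb.

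In lists around this step of the cycle, chosen with earlier results of these data known, more genes were lower than higher in Alox5-/- cells. Of 45 further G1 to S genes in 8 lists, 44 were tested, and 24 were lower (against 3706 of all 13705 tested), 8 higher (against 3673) and 12 not called. With library totals in place of TMM factors, 23 were lower (against 2959) and 10 higher (against 4326). The median change was -0.17 on the log2 scale, against 0.00 over all tested genes. All 5 tested genes of the cyclin E, cyclin A and CDK2 list fell. Ccne1, a cyclin that activates CDK2 late in G1, was 34.5, 34.6 and 35.5 CPM in Alox5-/-. In WT it was 53.1, 53.2 and 58.9 CPM (log2 -0.66, SE 0.05; edgeR adjusted p = 3.67e-08). Its paralog Ccne2 had a log2 fold change of -0.61, Cdc25a, the phosphatase that activates CDK2, of -0.55, Ccna2 of -0.23 and Cdk2 itself of -0.16. Cyclin A1 (Ccna1) had 0 counts throughout, a limit of 0.103 CPM in the shallowest library. The groups overlapped for none of the 5 genes that fell, and did not overlap for 60.0% of all tested genes.

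Of the 10 E2F and DP factors, 6 fell, 1 rose and 3 were not called. Over all 13705 tested genes, 3706 were lower and 3673 higher. E2f2, an activating E2F, had a log2 fold change of -0.34, the repressive E2f4, E2f6 and E2f7 of -0.32, -0.30 and -0.33, and E2f8 and Tfdp1 of -0.29 and -0.23. Tfdp2, a dimer partner of E2F proteins, went the other way, from 22.3, 22.0 and 21.9 CPM in WT to 33.0, 33.5 and 33.6 CPM in Alox5-/- (log2 0.60, SE 0.05; edgeR adjusted p = 9.35e-08). E2f1, E2f3 and E2f5 had log2 fold changes of -0.07, -0.06 and -0.09. Among E2F-driven S phase genes 7 of 8 were lower, with a median of -0.22. Tyms, thymidylate synthase, had the largest change (-0.32) and Tk1 was not called (edgeR adjusted p = 0.0583). Ccna2 counts in this list as well as in the former. Of the other pocket proteins related to RB, Rbl2 fell (-0.15) and Rbl1 had a log2 fold change of -0.07 (edgeR adjusted p = 0.121).

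Of the 9 regulators of p27, 3 were higher, 3 lower and 3 not called. These shares are near those over all 13705 tested genes (3673 higher and 3706 lower). Skp2, the ubiquitin ligase subunit that marks p27 for destruction, was 48.9, 43.7 and 46.1 CPM in Alox5-/-. In WT it was 59.6, 58.0 and 59.1 CPM (log2 -0.35, SE 0.04; edgeR adjusted p = 1.15e-05). Its cofactor Cks1b was also lower (-0.12), as was Cops5 (-0.18), a signalosome subunit known to export p27 from the nucleus. Foxo4 and Foxo3, forkhead factors that can induce Cdkn1b, were higher (0.35 and 0.18), and so was Rnf123 (0.11), a ubiquitin ligase for cytoplasmic p27. Ubac1, Uhmk1 and Foxo1 were not called. The calls of Cks1b and Rnf123 held under 9 and 10 of 15 alternatives, while those of Skp2, Cops5, Foxo3 and Foxo4 held under all 15.

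Of the 3 remaining CDK inhibitors, Cdkn1a fell, and the call of Cdkn2a depended on single libraries and on the test. Cdkn1a, which encodes p21 and is a target of p53, was 84.9, 95.7 and 85.6 CPM in Alox5-/- and 144, 149 and 157 CPM in WT, 1.69-fold lower (log2 -0.76, SE 0.05; edgeR adjusted p = 5.33e-09). Cdkn2a, whose locus encodes both p16 and p19ARF and which was named after its values were seen, was 30.8, 45.0 and 32.8 CPM against 30.5, 25.6 and 32.2 CPM, with overlapping groups and an edgeR adjusted p of 0.0411. Its log2 fold change of 0.29 became 0.11 without Alox5-/- replicate 2, with an edgeR adjusted p of 0.226, and the call was also lost without WT replicate 1 or WT replicate 2, with the replicate block (edgeR adjusted p = 0.0682), and with DESeq2, limma-voom and the robust fit. Cdkn2b (p15) had 146 counts in all and was not called (edgeR adjusted p = 0.458).

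The CDK-activating kinase and D cyclin turnover lists held small changes in both directions. Cdk7, the catalytic subunit of the activating kinase, had a log2 fold change of -0.20, Mnat1, its assembly factor, of 0.17, and Ccnh was not called. In the turnover list Cdc37, a chaperone partner of CDK4, was lower (-0.23), and Fbxo31 and Ambra1, which mark D cyclins for destruction, were higher (0.29 and 0.15), while Gsk3b and Fbxo4 were not called.

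**Figure D5:**
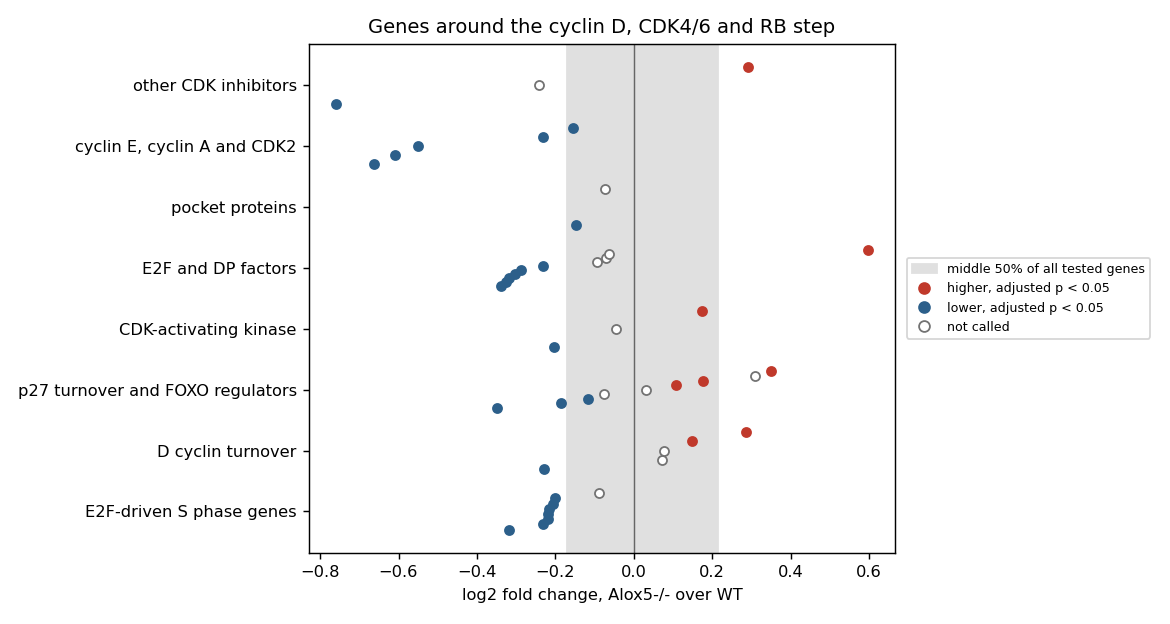
Log2 fold change of Alox5-/- over WT for the tested genes of the 8 further G1 to S lists, filled where the adjusted p was under 0.05; the grey band spans the middle 50% of all tested genes. The cyclin E list and the S phase list lie to the left of 0, and the 4 points farthest left are Cdkn1a, Ccne1, Ccne2 and Cdc25a.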

How the data were processed

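RNA from 3 Alox5-/- and 3 WT libraries was compared. The authors deposited raw read counts per gene, and the submitters' processing notes list HTSeq, DESeq2 and the mm10 build. The sources used here do not give the aligner, tool versions, annotation release or strand setting. The 5 summary rows that name no gene, 39.1 to 40.05% of reads, were left out. Counts were fitted in R 4.3.3 with edgeR 4.0.16 (TMM scaling, default expression filter, quasi-likelihood F-test, genotype as the only term), with Benjamini-Hochberg adjustment over 13705 genes and a threshold of 0.05. The fit was run on simulated data with as many rises as falls, the falls being larger on average. Far fewer genes changed in the simulated data than were called here. How TMM scaling behaves when many genes change was therefore not tested. The standard error (SE) came from the coefficient and its F statistic. A count of 0 allows up to 3 counts, 0.0775 to 0.103 CPM by library. Positions and lengths came from GENCODE vM21 of the same build. Every pair of libraries differed beyond counting noise, with a chi-square of at least 2.18 per degree of freedom. Ratios were compared by exact permutation tests in scipy 1.17.1.

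Named were all 10 genes, Alox5, the imprinted neighbours of Cdkn1c and, from each further list, every called gene changed by at least 0.3 (log2), or else the called gene with the smallest p, and genes with 0 to 3 counts. Other list genes were named after their values were seen, to account for short counts. Promoter sequence came from RefSeq (GRCm38.p6). Some of the marker genes examined are not reported here. The members and lists were chosen with earlier results of these data known. Alternatives were DESeq2 1.42.0, limma-voom (limma 3.58.1), 3 other scalings, a robust fit, 2 other filters, leaving out each library, and a replicate block.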

Additional observations from a re-analysis of the deposited data

How the results depend on the processing

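The 6 calls of Ccnd3, Cdk4, Cdk6, Cdkn1b, Cdkn1c and Rb1 held under all 15 alternatives, and no log2 fold change of the 10 genes changed sign in 149 alternative fits; Ccnd1 could not be fitted with the filter of 1 CPM in 5 libraries. Of those fits, 136 kept the call, 8 lost it, all for Cdkn2d, and 5 gained it, for Ccnd1, Ccnd2 and Cdkn2c. The number of called genes among the 10 was 6 to 9, and among the 44 further genes tested 30 to 33. Over all genes tested under each setting, that number was 6407 to 7622. The ratio of Ccnd1 to Ccnd3 changed direction without Alox5-/- replicate 2 (-0.0040) and without WT replicate 3 (-0.34, against 0.07 with all libraries; log2 scale), and over all replicates left out it ranged from -0.34 to 0.44. The cause was not tested. With the longest transcript as the length, 16 of 20 levels per length moved by more than 1 SD. Libraries with the same replicate number did not deviate together (correlations -0.26 to -0.11 over 10211 genes). Correlations between different numbers ran from -0.20 to 0.25. Deviations from a mean of 3 libraries are tied to each other, so these values cannot show whether the libraries were paired. With the replicate block 7029 genes were called, against 7379, and 6 of the 10 genes. Depth limits Ccnd1 and Cdkn1c, with 136 and 472 counts over all libraries.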

Other observations

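Cdkn1c lies in an imprinted cluster on distal chromosome 7, and its neighbours were read by their counts. Kcnq1ot1, the long non-coding RNA transcribed across the cluster from the paternal allele, was 11.3, 10.7 and 10.8 CPM in Alox5-/- replicates 1 to 3 and 12.5, 13.2 and 11.2 CPM in WT, and was not called (log2 fold change -0.17, SE 0.08; edgeR adjusted p = 0.0739). Slc22a18, a transporter gene of the same cluster, was 1.04 ± 0.131 against 1.21 ± 0.149 CPM (SD, n = 3 each; edgeR adjusted p = 0.361). H19 had no count in any library, and Igf2, Phlda2 and Kcnq1 had 1, 2 and 3 counts over all 6 libraries. Of these genes only Kcnq1ot1 and Slc22a18 had enough counts to be tested beside Cdkn1c, and the difference between its change and that of Kcnq1ot1 was not tested.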
